A study of Homo sapiens with 24 samples.

Results

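Small nucleolar RNA host genes are spliced genes, mostly noncoding, that carry small nucleolar RNAs (snoRNAs) inside their introns. They were followed here in 24 libraries of A2780 and A2780cis cells. Members were the rows of the count table whose identifier maps to a symbol made of SNHG and a number, together with GAS5, ZFAS1 and EPB41L4A-AS1, which gave 31 genes of 63299. All 31 belong to the lncRNA class of GENCODE 44.

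A2780 is a human ovarian cancer line that is sensitive to platinum. A2780cis is its platinum-resistant counterpart, which was kept resistant by adding 1 µM cisplatin to the medium for a passage at intervals. The medium of each line was replaced by standard medium or by medium with 1 µM 5-FdU-ECyd, a duplex prodrug of 2'-deoxy-5-fluorouridine and 3'-C-ethynylcytidine. Cells were harvested after 6 h or 12 h, with 3 libraries in each of the 8 groups. More cells were seeded for A2780cis than for A2780, so line and seeding cannot be told apart. The study calls the libraries of a group biological triplicates, and the p-values measure the spread between these libraries.

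In such a gene the intron is cut out and trimmed to the snoRNA, while the spliced RNA is exported. Box C/D snoRNAs guide methylation of the 2' hydroxyl of ribose, box H/ACA snoRNAs guide the change of uridine to pseudouridine, and the related scaRNAs act on spliceosomal RNA in Cajal bodies. Many spliced host RNAs start with a run of pyrimidines, as the mRNAs of ribosomal proteins do, and are destroyed by nonsense-mediated decay when they are translated, so their level is known to rise where translation stops.

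The totals ranged from 11077368 to 21901406 counts per library. Levels are given in CPM, the count of a gene relative to the TMM-scaled total of its library. In this scale VIM, a mesenchymal marker, lay between 788 and 2769 CPM, the epithelial keratins KRT18 and KRT8 reached 28.4 and 6.80 CPM, EPCAM did not exceed 1.96 CPM, and the ovarian carcinoma markers PAX8, WT1 and MUC16 were at 0 in the median library. Of the 31 members, 27 had enough counts to be tested. SNHG18 had no count, and SNHG27, SNHG28 and SNHG31 had at most 0.5, 4 and 6 counts in any library. Differences are log2 fold changes (log2 FC) with their standard error (SE), as edgeR fitted them by quasi-likelihood. The p-values are adjusted by Benjamini-Hochberg over all 20240 genes tested, and 0.05 is the threshold.

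The start of the host genes is shown because many of these RNAs belong to the pyrimidine-start class. RefSeq (GRCh38.p14) gave a promoter for 27 of the 31 members. The windows below run from 20 bases before to 50 bases after the RefSeq start, 5′ to 3′ on the gene's strand, and capitals mark any of 3 strings, CTTTT, its form with a last C (CTTTC) and the shifted form CCTTT. They lie at chr20:49278622-49278691 (plus strand, ZFAS1), chr6:85678684-85678753 (minus strand, SNHG5), chr1:173868996-173869065 (minus strand, GAS5), chr1:28581824-28581893 (minus strand, SNHG12), chr9:136728135-136728204 (minus strand, SNHG7) and chr14:95534823-95534892 (minus strand, SNHG10).
ZFAS1: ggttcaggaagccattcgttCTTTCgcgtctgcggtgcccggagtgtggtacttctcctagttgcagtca
SNHG5: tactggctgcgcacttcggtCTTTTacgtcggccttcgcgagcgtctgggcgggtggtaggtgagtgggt
GAS5: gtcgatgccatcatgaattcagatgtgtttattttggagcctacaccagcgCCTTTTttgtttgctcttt
SNHG12: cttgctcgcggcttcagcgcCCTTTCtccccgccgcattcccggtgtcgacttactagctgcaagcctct
SNHG7: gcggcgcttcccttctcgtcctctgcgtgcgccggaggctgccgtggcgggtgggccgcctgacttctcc
SNHG10: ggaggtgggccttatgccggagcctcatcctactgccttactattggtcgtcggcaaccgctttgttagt
At least 1 of these strings, which overlap each other where a second C comes before the first, was present on the gene's strand in 14 of the 27 members (51.9%), in 60 of 78 ribosomal protein genes (76.9%) and in 6226 of 35116 promoters of all genes (17.7%). On the other strand the shares were 14.8%, 7.69% and 16.2%. Among the members the strings were found in 9 of 12 hosts of box C/D snoRNAs, in 3 of 9 hosts of box H/ACA snoRNAs and in 1 of 4 scaRNA hosts. A string was counted anywhere in the window, so it need not lie at the start of the RNA. GAS5 is among the 14, although its string lies past the RefSeq start. Its window also lies wholly upstream of GAS5 in the annotation that named the rows, where the gene begins at chr1:173868882 (minus strand).

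In untreated cells the host genes were higher in A2780cis than in A2780. At 6 h, 17 members were higher and 1 was lower, where 47.9% of all genes tested were called, 25% as higher and 22.9% as lower. At 12 h, 18 were higher and 2 lower, where 52.9% were called, 25.4% as higher and 27.5% as lower. The median log2 FC of the 27 members was 0.56 at 6 h and 0.50 at 12 h, while that of all genes was 0.01 and -0.01. SNHG26 had 2.80, 2.08 and 2.64 CPM in untreated A2780 and 15.9, 13.8 and 18.2 CPM in untreated A2780cis at 6 h, a log2 FC of 2.66 (SE 0.17, adjusted p = 2.54e-13 by edgeR). Its A2780cis libraries were all far above those of A2780, and the log2 FC at 12 h was 2.56 (SE 0.16). SNHG32, the host of SNORD48 and SNORD52, had 53.7, 51.5 and 54.7 CPM in A2780 and 170, 154 and 183 CPM in A2780cis at 6 h, without overlap (log2 FC 1.66, SE 0.10, adjusted p = 7.55e-14 by edgeR), and its log2 FC at 12 h was 1.60 (SE 0.10).

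SNHG6, SNHG12 and SNHG29 had differences of the same direction, with a log2 FC of 1.38 (SE 0.12), 1.38 (SE 0.11) and 1.14 (SE 0.11) at 6 h. GAS5, the growth arrest transcript, was higher in A2780cis by a log2 FC of 0.80 (SE 0.11) at 6 h and 0.68 (SE 0.11) at 12 h. SNHG14, the long transcript of the imprinted Prader-Willi locus, was lower at both times, with a log2 FC of -0.33 (SE 0.09) and -0.44 (SE 0.09). The scaRNA hosts stood apart, since none of the 4 passed the threshold at either time and their log2 FC ranged from -0.35 to 0.13. The same comparison gave 34 higher and 4 lower of 79 ribosomal protein genes at 6 h, with a median log2 FC of 0.30, and 37 higher and 5 lower at 12 h.

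**Figure D1:**
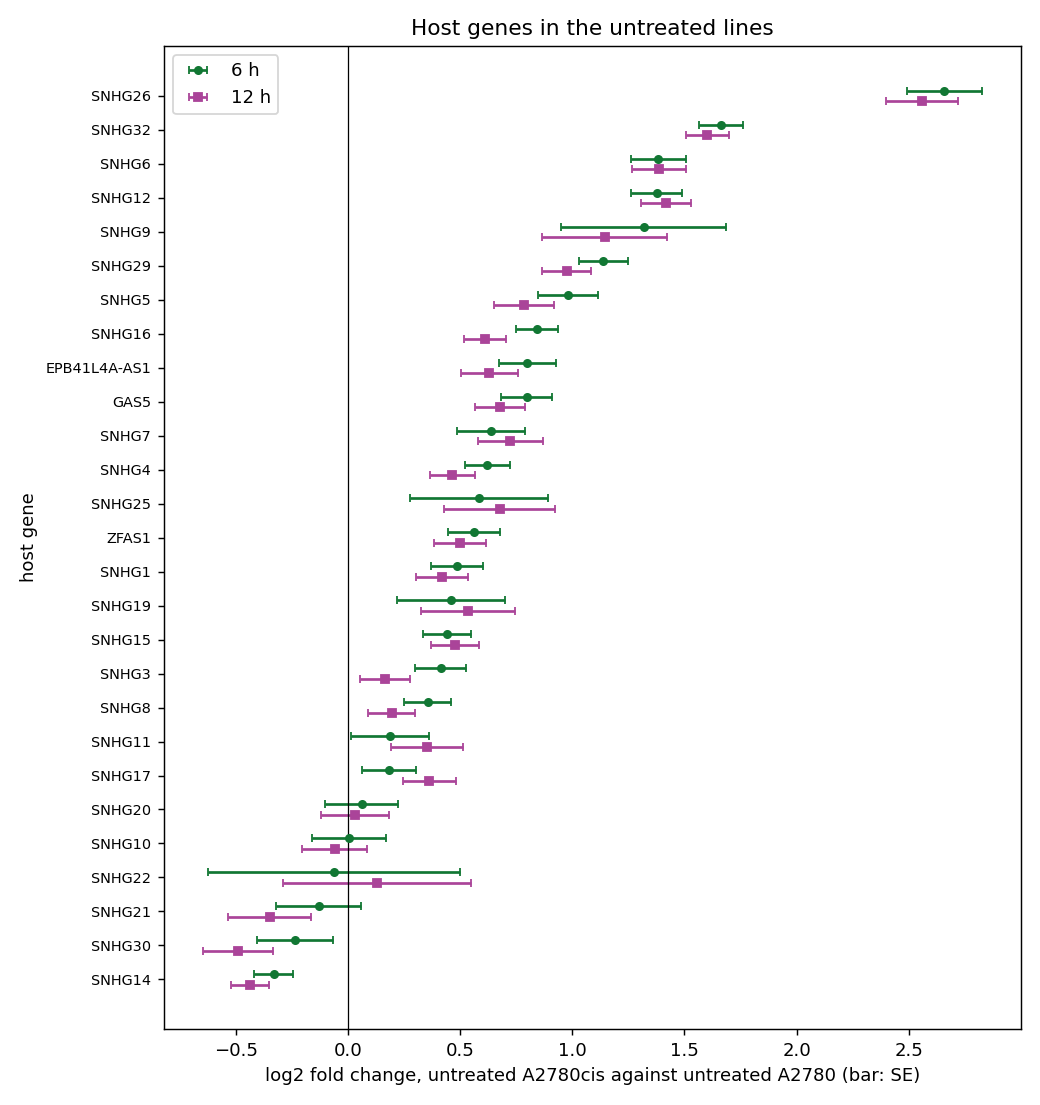
Log2 FC (x axis) of each of the 27 host genes (y axis) in untreated A2780cis against untreated A2780 cells at 6 h (circles) and 12 h (squares), with bars for the SE. SNHG26 and SNHG32 lie farthest to the right, at 2.66 and 1.66 at 6 h, and 23 of 27 genes lie to the right of 0 at each time.

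Levels of the members were also divided by the kilobases of their merged exons, since the genes differ in length. In untreated A2780 at 6 h, GAS5 had 74.7 CPM per kilobase, SNHG1 62.5, SNHG29 34.1, SNHG3 31.2 and SNHG32 29.6, while SNHG22 had 0.168. In untreated A2780cis the order was GAS5 with 130, SNHG32 with 93.7, SNHG1 with 87.6 and SNHG29 with 75.1 CPM per kilobase. The merged exons are the union over all transcripts of a gene in the annotation used here to name the rows. The authors counted over an earlier GENCODE annotation, so counts and lengths rest on different gene models. In SNHG1 the union is 1 block of 3976 bases, which runs from the start to the end of the gene. The order depends on these lengths and is not a ranking of transcript levels. Differences between neighbours in this order were not tested.

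Without any drug the hosts differed between 6 h and 12 h after the change of medium. The 12 h libraries were also deeper, with median totals of 17423522 (A2780) and 18277766 (A2780cis) counts. At 6 h these were 11704301 and 12092593 counts, so time, harvest and depth cannot be told apart. From 6 h to 12 h, 6 members fell and none rose in untreated A2780, where 26.9% of all genes were called, 10.3% as lower and 16.6% as higher. In untreated A2780cis 12 fell and 1 rose, where 39.9% were called, 21.9% as lower and 18% as higher. Scaled by library size alone, the median log2 FC of all genes in this comparison moved from -0.09 to 0.06 in A2780cis. ZFAS1, which carries the 3 SNORD12 snoRNAs, had 107, 112 and 96.7 CPM at 6 h and 77.1, 77.2 and 74.3 CPM at 12 h in untreated A2780, and every 12 h library was below every 6 h library (log2 FC -0.47, SE 0.12, adjusted p = 0.00637 by edgeR). In A2780cis its level fell from 160, 133 and 173 CPM to 120, 101 and 102 CPM (log2 FC -0.53, SE 0.12, adjusted p = 0.00106 by edgeR). SNHG5 fell in A2780cis from 192, 184 and 244 CPM to 153, 132 and 128 CPM, again without overlap (log2 FC -0.59, SE 0.13). SNHG7 was the member that rose in A2780cis, with a log2 FC of 0.45 (SE 0.15). The A2780 count depended on single libraries and was 1 without untreated 6 h replicate 1 or without untreated 12 h replicate 3, and 2 without untreated 12 h replicate 2. The A2780cis count of 13 became 6 without untreated 12 h replicate 3.

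Under 5-FdU-ECyd the summed level of all members was lower in both lines. It was 2013 ± 45.4 CPM (SD, n = 3) in untreated and 1719 ± 73.3 in treated A2780 cells at 6 h, and 1740 ± 41.1 and 1466 ± 87.8 at 12 h. In A2780cis the sums were 3390 ± 352 and 2829 ± 123 at 6 h and 2686 ± 169 and 2364 ± 328 at 12 h, where the spread was as large as the difference. The size of this depended on TMM scaling. As a share of all counts, the members made up 0.177%, 0.171% and 0.173% in untreated and 0.175%, 0.169% and 0.166% in treated A2780 at 12 h. In A2780cis at 12 h they made up 0.280%, 0.264% and 0.260% untreated and 0.251%, 0.231% and 0.277% treated. Without TMM the treated and untreated ranges overlapped at 12 h in both lines. Libraries were made from a fixed amount of total RNA, and every rise or fall here is relative to the library. The study describes 3'-C-ethynylcytidine as an inhibitor of RNA polymerase, and a change in total RNA per cell would not be seen. In bulk RNA, fewer cells that hold a given RNA and less of it in each cell cannot be told apart either.

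At 6 h, 6 of 27 members fell and none rose in A2780, where 29.4% of all genes were called, 13.4% as lower and 16% as higher. In A2780cis 8 fell and 1 rose, where 30.7% of all genes were called, 16.3% as lower and 14.4% as higher. At 12 h the calls went both ways, with 11 lower and 7 higher in A2780 (background 54.8%, of which 26.1% lower and 28.6% higher) and 10 lower and 7 higher in A2780cis (background 59.9%, of which 28.9% lower and 31% higher), so the share of members called was 66.7% and 63% against those backgrounds. The median log2 FC of the members was -0.20 in A2780 and 0.03 in A2780cis at 12 h, beside 0.02 and 0.04 for all genes. Scaled by library size alone, the median over all genes moved to 0.24 in A2780 and 0.15 in A2780cis at 12 h, and that of the members to 0.02 in A2780.

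The hosts are described next by the class of their snoRNAs. This division was made after the values were seen and is given as a description only. Of the 9 tested hosts of box H/ACA snoRNAs alone, 6 fell and none rose at 12 h in each line, and the median log2 FC was -0.70 and -0.65. GAS5 was placed with the box C/D hosts, although RefSeq lists 1 SNORA gene in it beside 10 SNORD genes. Of these 12 box C/D hosts, 3 rose and 4 fell in A2780 and 3 rose and 3 fell in A2780cis, with medians of -0.08 and 0.07. All 4 scaRNA hosts rose at 12 h in both lines, with medians of 0.80 and 1.45. All 4 also share exon bases with a gene of larger count, as do SNHG3, SNHG4 and SNHG14. Without these members and SNHG28, which had too few counts, 3 rose and 8 fell of 20 in A2780cis at 12 h, an alternative added after the data were seen.

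**Figure D2:**
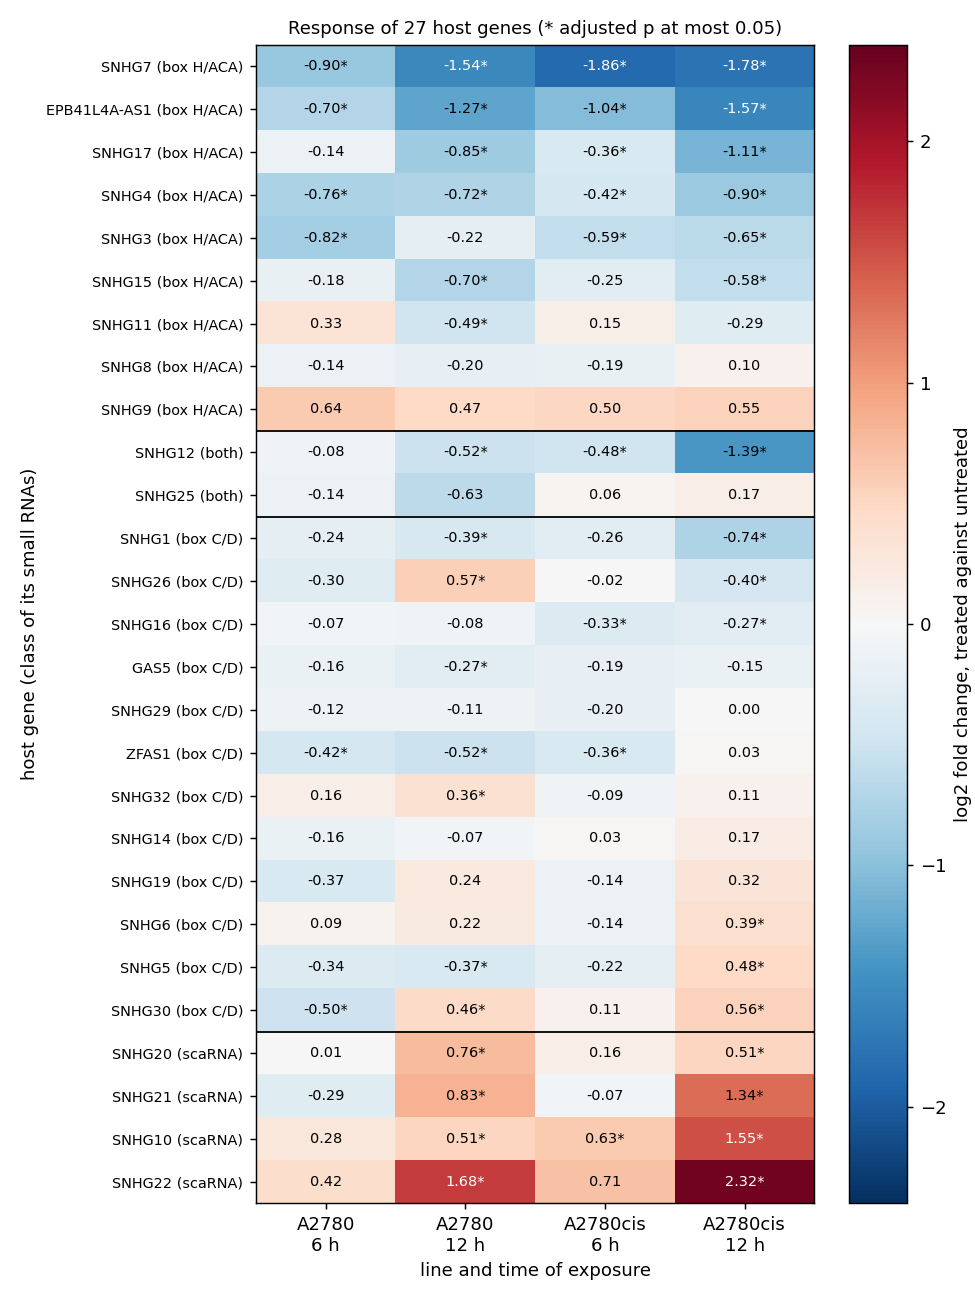
Log2 FC of treated against untreated cells (colour and number) for 27 host genes (top to bottom, ordered by the class of their small RNAs) in A2780 and A2780cis at 6 h and 12 h (columns), with asterisks for an adjusted p of at most 0.05 by edgeR. Hosts of box H/ACA snoRNAs at the top are mostly blue, with SNHG7 at -1.54 and -1.78 at 12 h, and the 4 scaRNA hosts at the bottom are red at 12 h.

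EPB41L4A-AS1, the host of SNORA13 (chr5:112160526-112164818, plus strand, GRCh38 in GENCODE 44), was down-regulated in every treatment comparison. In A2780 it had 34.1, 29.5 and 29.2 CPM untreated and 15.9, 20.1 and 21.3 CPM treated at 6 h, and 24.2, 24.8 and 24.2 CPM untreated and 11.9, 10.1 and 8.45 CPM treated at 12 h. In A2780cis it had 52.0, 47.6 and 61.9 CPM untreated and 27.3, 27.2 and 24.4 CPM treated at 6 h, and 42.6, 37.0 and 33.5 CPM untreated and 11.7, 12.6 and 13.7 CPM treated at 12 h. No treated library reached the level of an untreated library of the same line and time. The log2 FC was -0.70 (SE 0.13) and -1.27 (SE 0.13) in A2780 and -1.04 (SE 0.13) and -1.57 (SE 0.13) in A2780cis. The response grew from 6 h to 12 h in both lines, by -0.58 (SE 0.19, adjusted p = 0.0274 by edgeR) and -0.54 (SE 0.18, adjusted p = 0.033). Its exons share 2200 bases with EPB41L4A on the opposite strand, which fell by 1.85 and 2.19 on the log2 scale at 12 h, and the strand setting of the counting is not given in the sources used here.

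SNHG7, the host of SNORA17A and SNORA17B (chr9:136721366-136728184, minus strand), had the largest decrease among the members in A2780 at both times and in A2780cis at both times. In A2780 it went from 38.3, 39.6 and 47.5 CPM to 25.2, 23.9 and 18.1 CPM at 6 h, and from 54.0, 50.03 and 57.6 CPM to 15.2, 20.8 and 19.3 CPM at 12 h. In A2780cis it went from 65.8, 58.1 and 70.8 CPM to 14.7, 19.1 and 19.6 CPM at 6 h, and from 81.1, 84.4 and 101 CPM to 21.5, 32.4 and 23.9 CPM at 12 h. Treated and untreated libraries did not overlap in any of the 4 comparisons. At 12 h the treated libraries of A2780cis were all above those of A2780, while at 6 h the treated ranges of the lines overlapped. The log2 FC was -0.90 (SE 0.16) and -1.86 (SE 0.16) at 6 h in A2780 and A2780cis, and the difference of -0.96 (SE 0.22) between the lines passed the threshold (adjusted p = 0.0129 by edgeR). It was the single member so called, where 3.07% of all genes were, 0.692% as higher and 2.38% as lower in A2780cis. Scaled by library size alone the difference was -0.92 (adjusted p = 0.0544). At 12 h the log2 FC was -1.54 (SE 0.15) and -1.78 (SE 0.15), and the difference did not pass. DIPK1B, which shares 1482 exon bases with SNHG7 on the opposite strand, fell by 1.62 on the log2 scale in A2780 at 12 h and had a log2 FC of 0.12 in A2780cis.

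Of the other hosts of box H/ACA snoRNAs, SNHG8 and SNHG9 were called in no treatment comparison and the rest fell with various timing. SNHG3, which carries SNORA73A and SNORA73B, had 138, 110 and 136 CPM untreated and 68.0, 67.3 and 81.0 CPM treated in A2780 at 6 h (log2 FC -0.82, SE 0.12, adjusted p = 7.07e-06 by edgeR). The groups did not overlap, but at 12 h the log2 FC was -0.22 (SE 0.11) and did not pass. In A2780cis SNHG3 fell at both times, by 0.59 (SE 0.11) and 0.65 (SE 0.11) on the log2 scale. SNHG17, the host of the SNORA71 snoRNAs, moved in the other order, with a log2 FC of -0.14 (SE 0.12) at 6 h and -0.85 (SE 0.12) at 12 h in A2780, a difference of -0.71 (SE 0.17, adjusted p = 0.00424 by edgeR). SNHG4 fell in all 4 comparisons, with log2 FC from -0.42 to -0.90, and SNHG15 fell at 12 h in both lines. SNHG3 shares exon bases with RCC1, which fell by 0.88 and 1.19 on the log2 scale at 12 h, and SNHG4 with MATR3, whose mean count of 11553 was far above its own 796.

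SNHG12 carries snoRNAs of both classes and responded more in the resistant line. At 12 h it had 34.8, 32.9 and 32.7 CPM untreated and 26.97, 22.8 and 20.5 CPM treated in A2780, and 93.2, 85.4 and 89.7 CPM untreated and 30.4, 31.8 and 40.3 CPM treated in A2780cis. The groups did not overlap in either line, and in A2780cis the treated libraries lay around the untreated level of A2780. It fell by 0.52 (SE 0.12) on the log2 scale in A2780 and had a log2 FC of -1.39 (SE 0.11) in A2780cis, and the difference was -0.87 (SE 0.16, adjusted p = 0.000373 by edgeR). The difference between the responses at 12 h and 6 h in A2780cis was -0.91 (SE 0.16, adjusted p = 0.000182 by edgeR). SNHG25, the other gene with both classes, was called in no treatment comparison.

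SNHG1, which carries SNORD25, SNORD27 and other box C/D snoRNAs (chr11:62851978-62855953, minus strand), fell at 12 h. It had 200, 189 and 176 CPM untreated and 157, 140 and 135 CPM treated in A2780, and 290, 237 and 229 CPM untreated and 149, 131 and 172 CPM treated in A2780cis, in both lines without overlap. The log2 FC was -0.39 (SE 0.11, adjusted p = 0.00584 by edgeR) and -0.74 (SE 0.11, adjusted p = 4.6e-06 by edgeR). At 6 h the values were 268, 232 and 246 CPM against 191, 205 and 235 CPM in A2780, and 357, 304 and 383 CPM against 317, 288 and 267 CPM in A2780cis. Those groups overlapped, and the log2 FC of -0.24 (SE 0.11) and -0.26 (SE 0.11) did not pass. Scaled by library size alone, the A2780 value at 12 h was -0.17 (adjusted p = 0.158 by edgeR).

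GAS5 (chr1:173858559-173868882, minus strand) passed the threshold in 1 of the 4 treatment comparisons. In A2780 it had 398, 338 and 369 CPM untreated and 315, 326 and 347 CPM treated at 6 h, and 313, 302 and 277 CPM untreated and 276, 240 and 222 CPM treated at 12 h. In A2780cis it had 624, 576 and 720 CPM untreated and 590, 562 and 525 CPM treated at 6 h, and 514, 462 and 449 CPM untreated and 439, 353 and 491 CPM treated at 12 h. The groups overlapped in all but A2780 at 12 h, where the lowest untreated library lay just above the highest treated one. The log2 FC there was -0.27 (SE 0.11, adjusted p = 0.0407 by edgeR). That call was lost without 1 library in 4 of 6 cases (without untreated replicate 1 or 2 or treated replicate 2 or 3), with values of -0.26, -0.27, -0.26 and -0.21, and under scaling by library size alone, with -0.05. The other 3 comparisons gave -0.16 (95% interval -0.39 to 0.07), -0.19 and -0.15, and the difference between the lines at 12 h was 0.12 (SE 0.16).

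ZFAS1 and SNHG5 fell in treated A2780 and did not fall in A2780cis at 12 h. ZFAS1 (chr20:49278178-49299600, plus strand) had 107, 112 and 96.7 CPM untreated and 75.6, 78.9 and 81.0 CPM treated in A2780 at 6 h, and 77.1, 77.2 and 74.3 CPM untreated and 59.1, 50.97 and 50.03 CPM treated at 12 h. In A2780cis it had 160, 133 and 173 CPM untreated and 132, 120 and 113 CPM treated at 6 h, and 120, 101 and 102 CPM untreated and 116, 86.0 and 128 CPM treated at 12 h. Treated libraries were below untreated ones except in A2780cis at 12 h, where they spanned the untreated range. The log2 FC was -0.42 (SE 0.12), -0.52 (SE 0.12), -0.36 (SE 0.12) and 0.03 (SE 0.12) in that order, and the difference between the lines at 12 h was 0.54 (SE 0.17, adjusted p = 0.0184 by edgeR). The difference lost its call without A2780cis untreated 12 h replicate 2 (0.50, adjusted p = 0.0546 by edgeR) or without A2780cis treated 12 h replicate 3 (0.41, adjusted p = 0.0781). The A2780cis call at 6 h was lost in 4 of 6 cases with 1 library left out, with values from -0.27 to -0.35.

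SNHG5 had 80.8, 79.4 and 79.7 CPM untreated and 66.3, 60.0 and 59.6 CPM treated in A2780 at 12 h, and 153, 132 and 128 CPM untreated and 207, 141 and 229 CPM treated in A2780cis. It was lower in every treated A2780 library, and in A2780cis 2 treated libraries were above all untreated ones while the third lay within their range. Its log2 FC values were -0.37 (SE 0.13) and 0.48 (SE 0.13), and the difference of 0.85 (SE 0.19) had an adjusted p of 0.00193 by edgeR. A protein-coding gene model that shares 943 exon bases with SNHG5 on the same strand had log2 FC of -1.13 and -1.20. SNHG6 rose at 12 h in A2780cis (log2 FC 0.39, SE 0.12), and the lines differed by 0.17 (SE 0.17), which did not pass. In all, 5 members had a difference between the lines at 12 h, 3 toward a higher value in A2780cis and 2 toward a lower one, where 23.7% of all genes were called, 9.7% as higher and 14% as lower. Scaled by library size alone, 9 members differed, 3 higher and 6 lower.

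Ribosomal protein genes, whose mRNAs are known to start with a run of pyrimidines, were read beside these hosts. At 12 h, 64 of 79 rose and none fell in A2780cis, with a median log2 FC of 0.50, while 1 rose and 14 fell in A2780, with a median of -0.13. Of all genes 31% rose and 28.9% fell in A2780cis, and 28.6% rose and 26.1% fell in A2780. The difference between the lines was higher in A2780cis in 60 of 79 and lower in none. Scaled by library size alone, the A2780 median was 0.09, with 13 higher and 5 lower, and the A2780cis median was 0.60. RPS20 and RPL27A, components of the small and the large subunit, had a log2 FC of 0.76 (SE 0.13) and 0.64 (SE 0.12) in A2780cis.

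**Figure D3:**
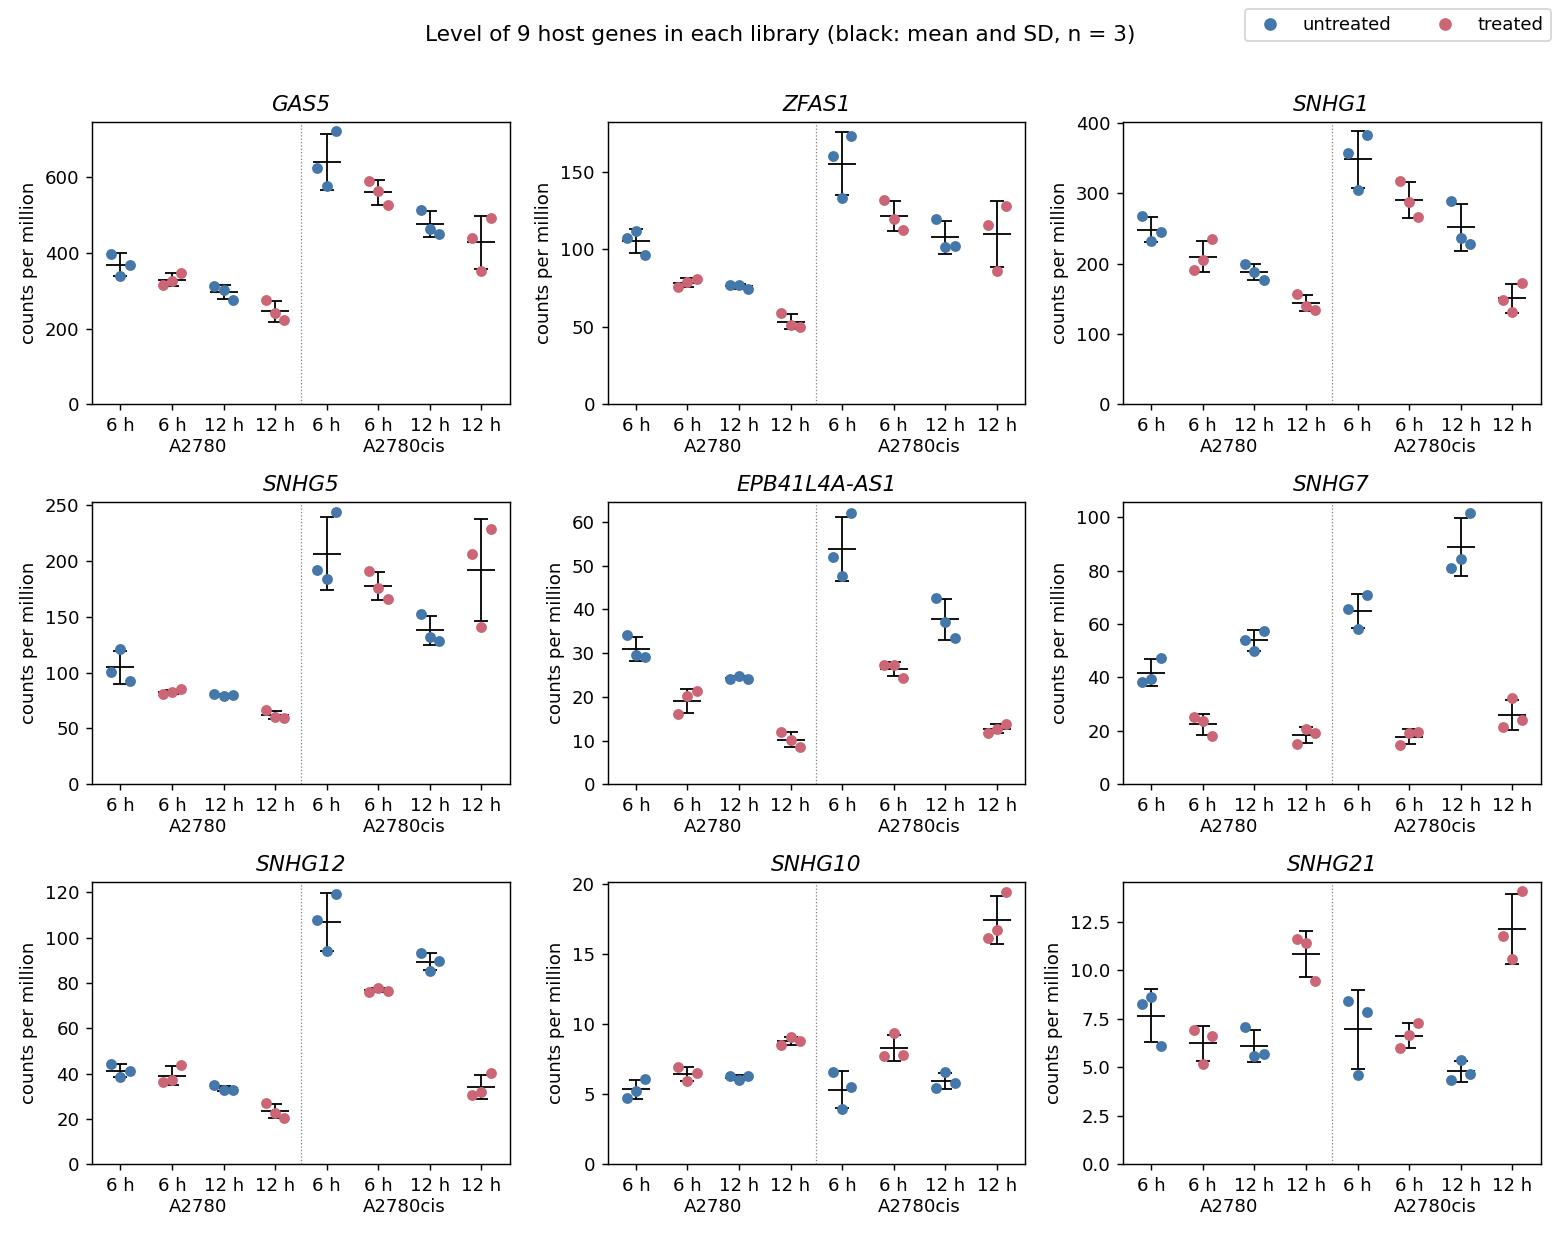
CPM (y axis, from 0) of 9 host genes in each of 24 libraries, by line, time and treatment, with black marks for mean and SD (n = 3). In A2780cis at 12 h, treated libraries of SNHG5 reach 229 CPM and those of ZFAS1 span the untreated range, while EPB41L4A-AS1 and SNHG7 drop in both lines and SNHG10 rises.

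SNHG22 and, in A2780cis, SNHG10 had the largest increases at 12 h, and both are scaRNA hosts. SNHG10, the host of SCARNA13 (chr14:95521943-95534889, minus strand), had 6.27, 5.96 and 6.27 CPM untreated and 8.48, 9.09 and 8.79 CPM treated in A2780 at 12 h, and 5.44, 6.57 and 5.78 CPM untreated and 16.1, 16.7 and 19.4 CPM treated in A2780cis. All treated libraries were above all untreated ones, and the rise was larger in A2780cis. The rise was a log2 FC of 0.51 (SE 0.14) and 1.55 (SE 0.14), a difference of 1.04 (SE 0.20, adjusted p = 0.000478 by edgeR). At 6 h in A2780cis it had 6.56, 3.91 and 5.48 CPM untreated and 7.73, 9.35 and 7.77 CPM treated (log2 FC 0.63, SE 0.15). Reads on SCARNA13 made up 19.1% of its counts over all libraries, and from 1.82% to 38.1% in single libraries. With those reads subtracted the log2 FC was 1.26 at 12 h and 0.34 at 6 h in A2780cis, the latter no longer past the threshold (adjusted p = 0.143 by edgeR). In A2780 at 12 h SCARNA13 had 7, 8 and 6 counts untreated and 26, 19 and 26 counts treated. The A2780 log2 FC and the difference between the lines given above include these reads. GLRX5, which shares 301 exon bases on the opposite strand, had log2 FC of -0.27 and 0.05 at 12 h.

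SNHG21, the host of SCARNA15 (chr15:82750564-82757206, plus strand), had 7.06, 5.56 and 5.70 CPM untreated and 11.6, 11.4 and 9.47 CPM treated in A2780 at 12 h, and 4.33, 5.39 and 4.64 CPM untreated and 11.7, 10.6 and 14.1 CPM treated in A2780cis. Again the groups were apart, with a log2 FC of 0.83 (SE 0.17) and 1.34 (SE 0.18), and at 6 h there was no call in either line. The response at 12 h exceeded that at 6 h by 1.12 (SE 0.26, adjusted p = 0.00276 by edgeR) in A2780 and by 1.41 (SE 0.26, adjusted p = 0.00036) in A2780cis. An overlapping lncRNA on its strand shares 768 of the 1053 merged exon bases of SNHG21 and had a log2 FC of 0.92 in A2780cis at 12 h. FSD2 on the opposite strand shares 359 exon bases and had 0.94. Both had larger mean counts than SNHG21. Reads on bases shared on the same strand count for both genes, so the lncRNA is not a separate observation.

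SNHG22 was low, with 0.462, 0.637 and 0.565 CPM untreated and 1.47, 2.35 and 1.55 CPM treated in A2780 at 12 h, and 0.722, 0.505 and 0.594 CPM untreated and 2.41, 2.81 and 4.05 CPM treated in A2780cis. The treated libraries were higher throughout, with a log2 FC of 1.68 (SE 0.35) and 2.32 (SE 0.32). MYO5B shares 229 exon bases with it on the opposite strand and had log2 FC of 2.45 and 1.82. With small RNA reads subtracted, which made up 33.6% of its counts on average and 100% in 1 library or more, the A2780cis value of SNHG22 was 3.85. SNHG20 rose by a log2 FC of 0.76 (SE 0.15) and 0.51 (SE 0.15), while SEC14L1, which shares 460 exon bases on the same strand and had a larger count, had -0.16 and -0.74. The part of these overlapping genes in the values of their hosts was not tested.

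SNHG16 fell in A2780cis, by 0.33 and 0.27 on the log2 scale at 6 h and 12 h, SNHG11 fell in A2780 at 12 h by 0.49, and SNHG32 rose there by 0.36. Of the remaining members, SNHG30 rose at 12 h in both lines after a fall at 6 h in A2780, with log2 FC of -0.50 (SE 0.17) and 0.46 (SE 0.15) in A2780, a difference of 0.96 (SE 0.23, adjusted p = 0.00331 by edgeR). SNHG26 went opposite ways at 12 h, with 0.57 (SE 0.18) in A2780 and -0.40 (SE 0.14) in A2780cis, and the difference of -0.97 (SE 0.23) had an adjusted p of 0.0032 by edgeR. Between 6 h and 12 h the response itself differed for 10 members in A2780 (background 23.7%) and for 9 in A2780cis (background 24%). SNHG8, SNHG9, SNHG14, SNHG19, SNHG25 and SNHG29 were called in no treatment comparison. SNHG9, SNHG19 and SNHG25 are low, and the SE of their log2 FC at 6 h in A2780 was between 0.26 and 0.39.

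Reads on the small RNAs inside the hosts were counted in the same libraries. Members hold 139 small RNA loci in GENCODE 44, of which 44 in 23 hosts had enough counts. GENCODE 44 lists no snoRNA inside GAS5, while RefSeq names 10 SNORD genes and SNORA103 there, which were not analysed here. Reads of a retained intron or of the unspliced host that cross a snoRNA are counted for it, so the counts do not separate them from the mature snoRNA.

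The snoRNAs of ZFAS1 and SNHG5 are shown because the counts on their loci moved apart from those of their hosts. Sequences were read from GRCh38 at the GENCODE 44 coordinates, 5′ to 3′, and capitals mark TGATGA near the 5′ end (box C) and CTGA near the 3′ end (box D). The loci are chr20:49280683-49280772 (plus strand, SNORD12), chr20:49280319-49280409 (plus strand, SNORD12B), chr20:49278940-49279028 (plus strand, SNORD12C), chr6:85677589-85677658 (minus strand, SNORD50B) and chr17:16440036-16440106 (plus strand, SNORD49A of SNHG29).
SNORD12: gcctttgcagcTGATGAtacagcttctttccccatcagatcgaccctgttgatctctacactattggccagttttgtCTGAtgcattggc
SNORD12B: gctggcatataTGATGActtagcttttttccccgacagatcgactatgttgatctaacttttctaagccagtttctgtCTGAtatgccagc
SNORD12C: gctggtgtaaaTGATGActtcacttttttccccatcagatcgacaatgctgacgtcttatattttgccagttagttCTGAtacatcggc
SNORD50B: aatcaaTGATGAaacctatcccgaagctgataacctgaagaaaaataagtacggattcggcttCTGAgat
SNORD49A: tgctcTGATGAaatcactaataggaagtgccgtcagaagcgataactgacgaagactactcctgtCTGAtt
Of the 24 box C/D loci read, 17 held both strings at these places and all 24 held CTGA. A match of these letters is a description of the sequence.

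At 12 h in A2780cis, 24 of 44 small RNA loci fell and 2 rose, where 28.9% of all genes fell, with a median log2 FC of -0.995. Among box C/D loci 19 of 25 fell, with a median of -1.56. These loci lie in 13 hosts, and loci of the same host are not independent. Among box H/ACA loci 5 of 16 fell (31.2%). Of the 12 hosts placed in the box C/D class 3 fell, but that set holds GAS5 and leaves out SNHG12 and SNHG25. In A2780 17 loci fell and 2 rose (background 26.1% lower), with a median of -0.66. Of 123 snoRNA and scaRNA genes outside the members, 44 fell and 16 rose in A2780cis at 12 h, with a median of -0.38.

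SNORD12 had 32, 25 and 32 counts in untreated and 4, 6 and 2 counts in treated A2780cis at 12 h (log2 FC -2.64, SE 0.41, adjusted p = 4.09e-06 by edgeR). SNORD12B had 43, 44 and 36 counts against 9, 8 and 8 counts (log2 FC -2.07, SE 0.24), and SNORD12C had 27, 13 and 14 against 1, 1 and 5 (log2 FC -2.66, SE 0.56). All treated libraries were below all untreated ones for each, whereas the log2 FC of ZFAS1 was 0.03 with a 95% interval of -0.21 to 0.27. SNORD50B had 49, 23 and 21 counts against 5, 8 and 4 counts (log2 FC -2.1997, SE 0.36), while its host SNHG5 rose by 0.48. SNORD87 had 71, 54 and 51 counts against 15, 12 and 9 counts (log2 FC -2.06, SE 0.23), while its host SNHG6 rose by 0.39. SNORD49A had 58, 49 and 65 counts against 16, 20 and 12 counts (log2 FC -1.62, SE 0.27), and its host SNHG29 had a log2 FC of 0.00 (SE 0.11).

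The host and its small RNA differed the other way for SNHG10. SCARNA13 had 16, 8 and 11 counts in untreated and 67, 75 and 86 counts in treated A2780cis at 12 h (log2 FC 2.91, SE 0.29), more than its host at 1.55. SNORD7 of SNHG30 was the other locus that rose, with 3, 6 and 0 counts against 9, 12 and 15. For SNHG7, SNORA17A fell by 2.30 (SE 0.29) on the log2 scale beside 1.78 for the host. In A2780cis at 12 h, 23 of 25 box C/D loci and 5 of 16 box H/ACA loci had a lower log2 FC than their host. The difference between a small RNA and its host was not tested, and the reads of a small RNA that lies in host exons also count for the host.

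**Figure D4:**
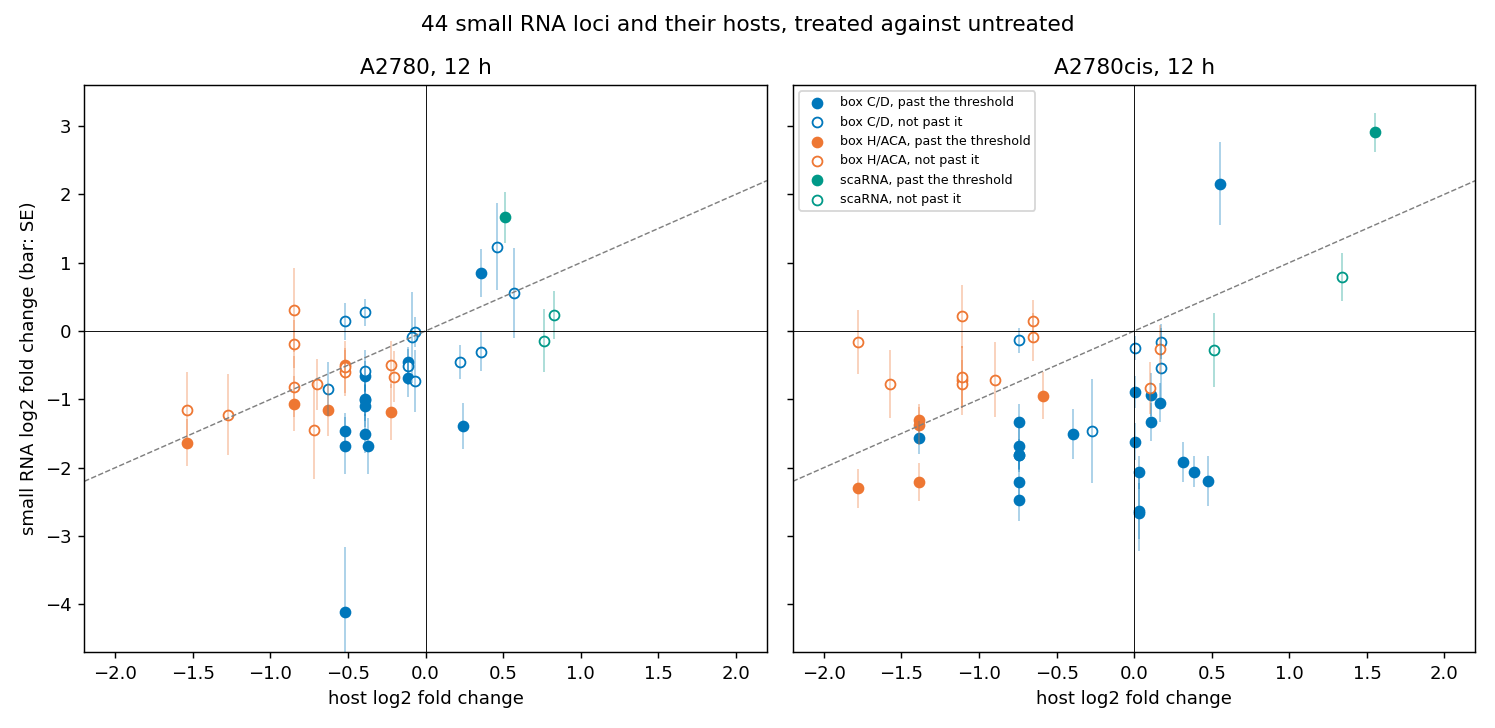
Log2 FC at 12 h of 44 small RNA loci (y axis, bars for SE) against that of their hosts (x axis) in A2780 and A2780cis, with filled points for an adjusted p of at most 0.05 by edgeR and a dashed line where both are equal. In A2780cis, filled box C/D points lie at -2.64, -2.07 and -2.66 where the host is at 0.03 (ZFAS1), and the lowest point in A2780 is SNORD12C at -4.11, a fitted value from 5, 13 and 5 counts against 0, 0 and 1, which depends on the prior count.

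Genes of the pathways around the hosts were read from lists, in the order A2780 and A2780cis at 12 h where a pair of values is given. At 12 h, 26.1% of all genes tested fell and 28.6% rose in A2780. In A2780cis 28.9% fell and 31% rose, and the counts of every list stand beside these shares. Of 22 nonsense-mediated decay factors, 3 rose and 8 fell in A2780 and none rose and 15 fell in A2780cis at 12 h, with medians of -0.17 and -0.59. NBAS, which takes part in this decay, had log2 FC of -1.26 and -1.47, and GSPT1, a translation termination factor, -1.34 and -1.27. Of 16 other transcripts known as sensitive to this decay, 5 rose and 5 fell in A2780, near the shares of all genes. In A2780cis 5 rose and 7 fell. GADD45A and ATF3, stress genes of that list, rose by a log2 FC of 3.17 and 2.44 in A2780 and 3.30 and 3.10 in A2780cis.

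Of 14 regulators of the translation of pyrimidine-start mRNAs, 11 fell and 1 rose in A2780 and 10 fell and 1 rose in A2780cis at 12 h. LARP1, which binds such mRNAs, fell by 1.18 and 1.60 on the log2 scale, and LARP4B by 1.20 and 1.39. Of 17 translation factor genes of that class, 13 fell and none rose in A2780 and 9 fell and 3 rose in A2780cis.

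Of the proteins of the snoRNA particles, all 4 box C/D core genes fell in A2780 and 2 of 4 in A2780cis, with NOP58 at -1.14 and -1.23 and NOP56 at -0.54 and -0.36. Of 4 box H/ACA core genes 3 fell in A2780, and in A2780cis 2 fell and 2 rose, with DKC1, the pseudouridine synthase, at -0.95 and -0.88 and GAR1 at -0.75 and -0.73. Of 11 assembly factors 7 and 8 fell, NOLC1 by 1.12 and 1.03. Protein-coding snoRNA hosts outside the ribosomal proteins fell in 20 of 23 in A2780 and in 19 of 23 in A2780cis, where 2 rose, with medians of -0.71 and -0.70. HSPA8, a chaperone with snoRNAs in its introns, fell by 3.45 and 3.01, and SF3B3, a splicing factor, by 1.34 and 1.43.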

How the data were processed

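RNA of 24 libraries (TruSeq Stranded Total RNA, NextSeq500) was aligned by the authors with STAR 2.5.2b to GRCh38 and counted over GENCODE exons with featureCounts, with reads kept for every overlapping feature and multi-mapping reads split into fractions. The strand setting is not given in the sources used here. The deposited values are therefore expected counts, of which 9.50% to 12.8% per library were not whole, and they were rounded here. Library totals of 11077368 to 21901406 limit low members most, and intervals cover the spread between libraries.

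Groups came from the labels. Rows were named by GENCODE 44, and the members and lists were chosen with earlier results of these data known. Genes kept by filterByExpr, with 10 as the smallest count and 15 as the smallest total, were tested with edgeR 4.0.16 in R 4.3.3 (TMM, quasi-likelihood, 1 coefficient per group, 16 residual degrees of freedom, Benjamini-Hochberg over 20240 genes, threshold 0.05) in 12 comparisons. The SE came from dividing the size of the log2 FC by the root of F. CPM used TMM scaling. The procedure was tested on simulated data. Figures were drawn with matplotlib 3.10.9.

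Values of every library were given for GAS5, ZFAS1, EPB41L4A-AS1 and SNHG1, for the 2 largest increases and decreases among called members without overlap in each treatment comparison, and for the 2 members of smallest p in each interaction and each comparison of untreated cells. Other members could be named with group means and log2 FC. Of every other list, the 2 genes of smallest p at 12 h in a line could be named. Library values of SNHG5 under treatment and the snoRNAs shown were chosen after their values were seen.

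Alternatives were RLE size factors (DESeq2 1.42.0), library size alone, no filter, unrounded counts, a replicate block, a fit of the compared groups, the DESeq2 Wald test, subtraction of small RNA reads from hosts, and each library left out.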

Additional observations from a re-analysis of the deposited data

Results flagged for a closer look

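The following members had a response that differed between the lines or between the times by the test of the difference itself (edgeR, adjusted over all genes). With 3 libraries per group, single libraries were not tested for standing apart.

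The response of A2780cis minus that of A2780 was -0.96 for SNHG7 at 6 h. At 12 h it was 1.04 for SNHG10, -0.87 for SNHG12, -0.97 for SNHG26, 0.85 for SNHG5 and 0.54 for ZFAS1, on the log2 scale.

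In A2780 the response at 12 h minus that at 6 h was -0.58 for EPB41L4A-AS1, -0.82 for SNHG11, -0.52 for SNHG15, -0.71 for SNHG17 and -0.64 for SNHG7. It was 0.75 for SNHG20, 1.12 for SNHG21, 0.86 for SNHG26, 0.60 for SNHG3 and 0.96 for SNHG30.

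In A2780cis this difference was -0.54 for EPB41L4A-AS1, -0.48 for SNHG1, -0.91 for SNHG12, -0.75 for SNHG17 and -0.48 for SNHG4. It was 0.93 for SNHG10, 1.41 for SNHG21, 0.70 for SNHG5 and 0.53 for SNHG6.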

How the results depend on the processing

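Of 108 counts of called members under alternatives other than leaving out a library, 104 stayed within 1.5 times the reported count, and of 392 values of single named members 379 kept their direction and their side of the threshold. Under library size alone the count for the difference between lines was 0 at 6 h and 9 at 12 h, in place of 1 and 5. Under the DESeq2 Wald test 10 members changed with time in untreated A2780, in place of 6. Without members that share exons with a gene of larger count (added after the data were seen), 11 members were called in A2780cis at 12 h, where fewer members are tested. Leaving out 1 library gave 1 to 8 for time in untreated A2780 and 6 to 15 in untreated A2780cis.

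Values near 0, none of them called, changed sign. The difference between lines at 6 h was 0.0036 (RLE), 0.0144 (library size alone), 0.0419 (compared groups alone) and 1e-04 (DESeq2) for SNHG1, and 0.0034 and 0.0297 (library size alone and compared groups) for GAS5. ZFAS1 in A2780cis at 12 h was -0.0242 without a filter. With 1 library left out, ZFAS1 there ranged from -0.12 to 0.18, and the differences between lines at 6 h ranged from -0.10 to 0.061 for GAS5, -0.11 to 0.066 for SNHG1 and -0.036 to 0.15 for ZFAS1. The cause was not tested.

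Library size alone changed the share of higher calls among all called genes, 52.3% against 70.7% in A2780 at 12 h, and 47.0% against 61.4% in A2780cis at 6 h, with the larger value under library size. For time in untreated cells, 61.7% became 71.9% in A2780, and 45.2% became 74.6% in A2780cis.

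Whether replicate numbers pair the libraries was not settled, and the main fit used no pairing. Of 84 same-numbered pairs 23 had deviations correlated above 0.1, with a lowest value of -0.29 and a median of 0.008. Of 168 pairs with different numbers 36 did, with a median of -0.005. Of the 24 libraries 12 correlated best with their own number. With the replicate block, 6 and 19 members were called in A2780 at 6 h and 12 h, 10 and 17 in A2780cis, and 1 and 6 for the difference between lines.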

Other observations

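DANCR, LINC00888 and MEG8, noncoding genes outside the symbol rule, were read after the values were seen. MEG8 had too few counts to be tested. DANCR, a noncoding snoRNA host, had 62.0 ± 2.13 CPM (SD, n = 3) in untreated and 55.9 ± 1.82 in treated A2780 at 12 h, and 93.1 ± 6.45 and 167 ± 33.5 CPM in A2780cis. Its log2 FC was -0.15 (SE 0.12) in A2780 and 0.84 (SE 0.11, adjusted p = 5.31e-07 by edgeR) in A2780cis, and the difference of 0.99 (SE 0.16) had an adjusted p of 9.74e-05. LINC00888 had log2 FC of 0.44 (SE 0.14) in A2780 and 1.14 (SE 0.15) in A2780cis at 12 h, a difference of 0.70 (SE 0.20, adjusted p = 0.0141 by edgeR).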
